A study of Mus musculus with 4 samples.

Results

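The transcription factor p53, its inhibitors Mdm2 and Mdm4, and 7 genes known as targets of p53 were examined in F123-ESCs. The genes are Trp53, Mdm2, Mdm4, Ccng1, Bax, Bbc3, Sesn2, Zmat3, Phlda3 and Perp. They were chosen by their symbols, and all 10 were found among the 24026 genes listed, with both alleles above 0 in every library. F123-ESCs are a male mouse embryonic stem cell line from a cross of S129 (maternal) and CAST (paternal) mice, so each autosomal gene has an allele of either strain. The study used the line to compare the alleles. RNAseq of polyA-enriched RNA was made from untreated cells in 4 libraries, replicates 1 to 4, all of genotype S129/CAST. The cells had been grown on feeder fibroblasts, moved to feeder-free plates for at least 2 passages and harvested after about 48 h. All libraries come from a single cell line, and nothing states that they are separate cultures, so every p-value below measures the spread between these libraries, which may be technical.

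In an unstressed cell p53 is made constantly and degraded as fast, because Mdm2 attaches ubiquitin to it and Mdm4 binds its activation domain. After DNA damage or disturbed ribosome production p53 is released from Mdm2, binds pairs of a short DNA element near its target genes and raises their transcription. Some targets slow growth or the cell cycle, others open the mitochondrial route to apoptosis, and Mdm2 itself is a target. Embryonic stem cells are known for a high level of p53. The level of an mRNA does not show the activity of the protein.

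The deposited values are RPKM, the reads on a gene scaled to its length in kilobases and to all reads of that allele in the library. Only reads that cover a SNP between the strains can be assigned to an allele. The values are multiples of a single read, which gave back the reads behind them for all 10 genes. The allele-assigned reads of a library numbered 34120416 to 56627972, lowest in replicate 4. In male cells the S129 total includes the maternal X chromosome, while CAST has no copy of it. Reads recovered on autosomal genes were 0.863 to 0.868 of the S129 total in the libraries and 0.887 to 0.899 of the CAST total. Autosomal RPKM of S129 are therefore lower against CAST than after division by the autosomal reads. All 10 markers of pluripotent cells had at least 1 RPKM, from 29.5 RPKM for Pou5f1 to 7111 RPKM for Dppa5a, and their summed RPKM was 7861 to 9479 in the libraries. Of the 10 markers of feeder fibroblasts, 8 had at least 1 RPKM and none was at 0. Their summed RPKM was 1737 to 2059, of which Vim gave 1703 RPKM on average. Col1a2 had 166 RPKM, Postn 15.4 RPKM, Col3a1 11.4 RPKM and Col1a1 5.68 RPKM. Pdgfra, Pdgfrb and Thy1 had 3.31, 2.18 and 1.57 RPKM, while Fap and Lum had 0.0352 and 0.0462 RPKM. Of the 8 tested between the alleles, 5 were higher on S129 and 2 on CAST (87.5%, against 62.7% of all genes tested), and their part in the results below was not tested. In bulk RNA, fewer cells of a type and less RNA per cell cannot be told apart.

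p53 binds DNA through a 10-base consensus element, which is 3 purines, a C, 2 bases that are A or T, a G and 3 pyrimidines, and reads the same on both strands. It was looked for in the RefSeq promoter windows of mouse build GRCm38.p6, which hold 250 bases before and 50 bases from the annotated start. Of the 10 genes, 8 have windows there, 11 in all, and Zmat3 and Perp have none. The element was found once in each of 4 of these windows (36.4%), those of Trp53, Mdm2, Ccng1 and Bax, and in 8.36% of all 32851 windows. Ccng1 and Bax held a second, imperfect copy beside it. Pairs of this kind, with at most 2 mismatches in all, a spacer of at most 1 base and the C and G kept, were found in 0.317% of all windows. The Ccng1 pair has 1 mismatch and no spacer, and the Bax pair has 2 mismatches and a spacer of 1 base. A match describes the sequence and shows neither binding nor its absence elsewhere. The sequences are shown as matches to the element only, and binding of p53 to them was not tested. They are written 5′ to 3′ on the strand of the gene, with the element, and the second copy where there is one, in capitals. The Ccng1 and Bax windows are whole, chr11:40755237-40755536 and chr7:45466849-45467148, both on the minus strand, with the element starting at -185 and -201 from the start of transcription. For Trp53 (chr11:69580259-69580318, plus strand, element at -75) and Mdm2 (chr10:117710910-117710969, minus strand, element at -186), 60 bases are shown.
Ccng1: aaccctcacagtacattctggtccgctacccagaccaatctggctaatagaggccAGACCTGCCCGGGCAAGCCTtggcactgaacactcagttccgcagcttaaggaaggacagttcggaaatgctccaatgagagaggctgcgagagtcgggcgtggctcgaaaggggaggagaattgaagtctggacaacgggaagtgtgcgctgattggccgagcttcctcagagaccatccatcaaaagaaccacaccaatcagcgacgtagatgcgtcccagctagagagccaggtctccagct
Bax: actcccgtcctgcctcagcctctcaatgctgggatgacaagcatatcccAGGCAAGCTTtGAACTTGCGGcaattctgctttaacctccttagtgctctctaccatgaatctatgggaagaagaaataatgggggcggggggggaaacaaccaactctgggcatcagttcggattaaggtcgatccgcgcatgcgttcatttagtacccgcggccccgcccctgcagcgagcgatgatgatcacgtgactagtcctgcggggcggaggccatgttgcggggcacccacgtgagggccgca
Trp53: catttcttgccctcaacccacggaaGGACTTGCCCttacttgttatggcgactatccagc
Mdm2: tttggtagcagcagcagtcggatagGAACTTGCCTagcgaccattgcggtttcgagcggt

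The levels of the 10 genes spanned from 4.50 to 409 RPKM as the mean of both alleles, with a median of 45.1 RPKM, where the median of all listed genes was 0.975 RPKM. Bax, Ccng1 and Trp53 were the most abundant. Bax had 409 ± 33.2 RPKM, Ccng1 227 ± 24.9 RPKM and Trp53 145 ± 12.9 RPKM (SD, n = 4 libraries each). Trp53 stood above 97.1% of all listed genes. Mdm4 followed with 56.4 ± 3.20 RPKM, Phlda3 with 45.2 ± 1.75 RPKM, Perp with 45.1 ± 1.67 RPKM and Sesn2 with 26.3 ± 2.70 RPKM (SD, n = 4 each). Zmat3, Bbc3 and Mdm2 were lowest, with 8.98 ± 0.675, 7.18 ± 2.06 and 4.50 ± 0.300 RPKM (SD, n = 4 each). Even Mdm2 stood above 65.6% of the listed genes. Of the 9 pairs of neighbours in this order, 7 had ranges over the libraries that did not overlap, and the higher gene was higher in 4 of 4 libraries. Each of these 7 gave p = 0.125 by the two-sided exact sign-flip permutation test, the smallest p that 4 libraries allow, and 0.161 after Benjamini-Hochberg adjustment over the 9 pairs. The order was set by these same values, so the test gives it no separate support. Phlda3 and Perp did not differ beyond their spread at the deposited lengths, with a log2 difference of 0.0018 ± 0.11 (SD, n = 4; exact p = 0.875). Zmat3 and Bbc3 did not either, with Zmat3 higher in 3 of 4 libraries (exact p = 0.25).

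**Figure D1:**
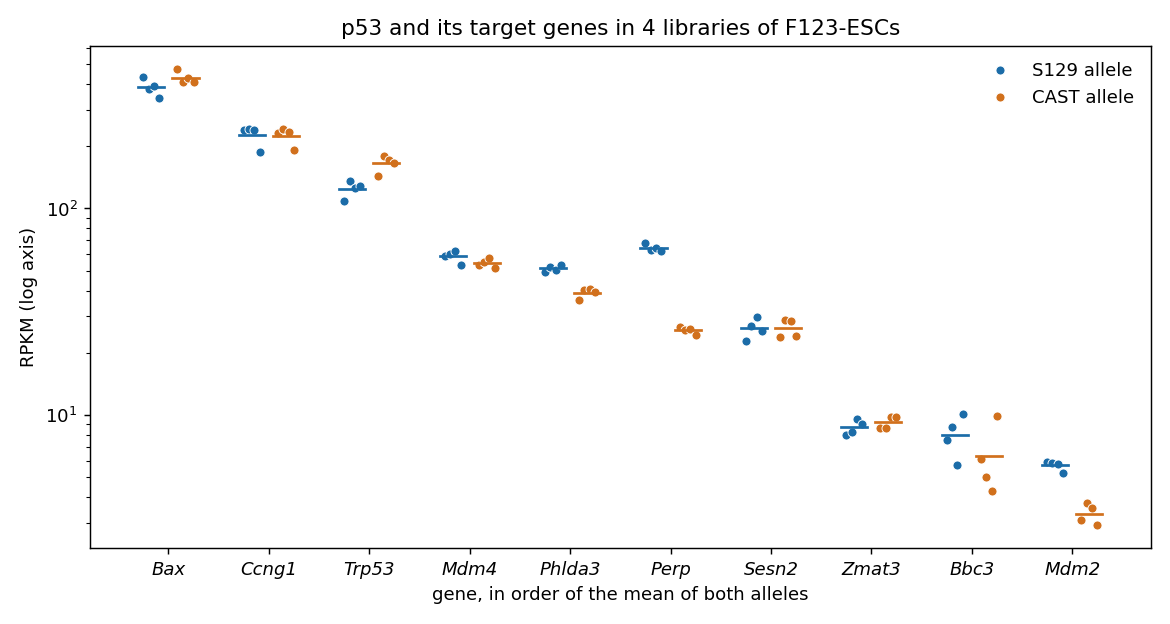
RPKM of each gene on a log axis, with a point for each of the 4 libraries (replicates 1 to 4 from left to right) on the S129 allele and the CAST allele and a line at their mean. The S129 points of Perp, Mdm2 and Phlda3 lie above all their CAST points, and those of Trp53 lie below.

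A level between genes rests on more than transcription, since a gene rich in SNPs yields more assigned reads (SNPs were not used here) and since reads are divided by a gene length. This length matched the transcript that GENCODE M21 lists first for 9 of the 10 genes, and another transcript of 1772 bp for Trp53. For Bbc3 it was 405 bp, where all annotated exons of the gene together span 2124 bp. With the length of all annotated exons, the level of Bbc3 was 1.37 ± 0.394 RPKM and that of Mdm2 2.74 ± 0.183 RPKM (SD, n = 4 each), so that Bbc3 was the lowest of the 10. Mdm4 went from 56.4 to 17.9 RPKM, since its exons span 14798 bp in place of 4694 bp, and stood below Sesn2. Trp53 went to 63.5 RPKM and Bax to 208 RPKM. Ccng1, unchanged at 227 RPKM, was then above Bax in 3 of 4 libraries, a difference within the spread (log2 difference 0.12 ± 0.14, SD, n = 4; exact p = 0.25). Perp, unchanged at 45.1 RPKM, was then above Phlda3, at 41.6 RPKM, in 4 of 4 libraries with ranges that did not overlap (log2 difference 0.12 ± 0.11, SD, n = 4; exact p = 0.125, the smallest possible). For Ccng1, Sesn2 and Perp both lengths were the same. Which exons the authors counted reads on is not given in the sources used here. The order of Bax and Ccng1, of Phlda3 and Perp, and of Bbc3 and Mdm2 therefore rests on the length. So does the place of Mdm4 against Phlda3, Perp and Sesn2, while Phlda3 and Perp stood above Sesn2 with either length.

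**Figure D2:**
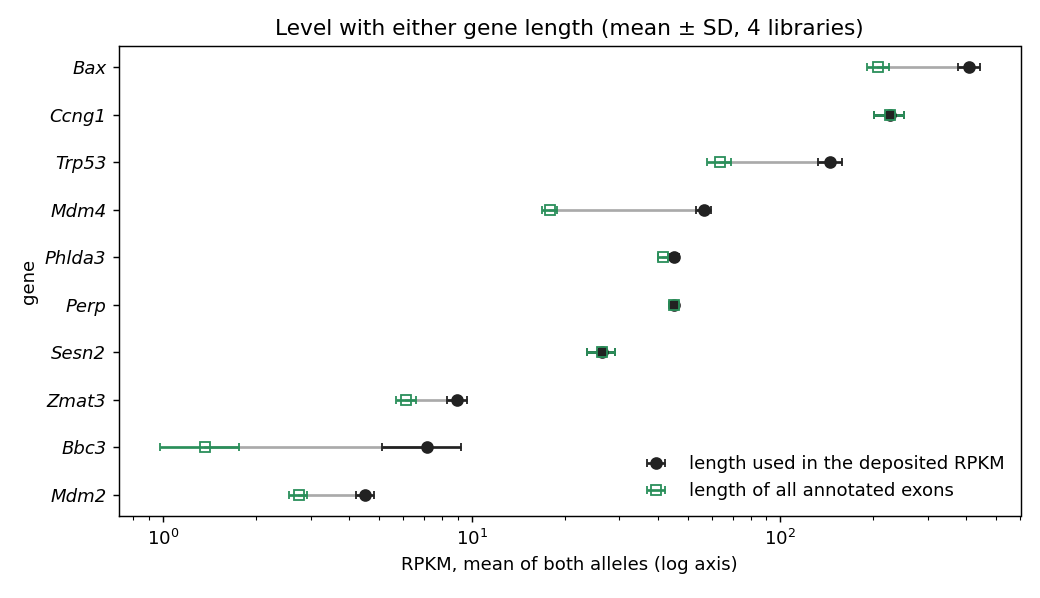
Mean of both alleles in RPKM on a log axis, with the SD over 4 libraries, computed with the length behind the deposited values (filled circles) and with the length of all annotated exons (open squares). Bbc3 moves from 7.18 to 1.37 RPKM and Mdm4 from 56.4 to 17.9 RPKM, while Ccng1, Sesn2 and Perp stay in place.

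Between the alleles, 6 of the 10 genes differed by limma with Benjamini-Hochberg adjusted p under 0.05. Perp, Mdm2, Phlda3 and Mdm4 were higher on S129, and Trp53 and Bax were higher on CAST. Bbc3, Zmat3, Ccng1 and Sesn2 did not pass. The test took log2(RPKM+0.1) of S129 less that of CAST in every library. Of the 13341 genes tested 62.7% passed, 31.4% with S129 higher and 31.3% with CAST higher, so that 6 of 10 is close to the share of all genes tested. On the autosomes 61.4% passed, 28.9% with S129 higher and 32.5% with CAST higher. With columns rescaled to a common autosomal sum, the calls over all genes divided into 5121 on S129 and 3072 on CAST, in place of 4187 and 4182. The median difference of the 10 genes, all autosomal, was 0.065. That of all genes tested was -0.0034 and that of the autosomal genes tested was -0.021. The median size of the difference, without its sign, was 0.27 for the 10 genes and 0.29 for the 12869 autosomal genes tested. The values of the alleles in the 4 libraries did not overlap for 4 of the 10 genes, Perp, Mdm2, Phlda3 and Trp53, and for 45.6% of all genes tested (43.6% on the autosomes).

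**Figure D3:**
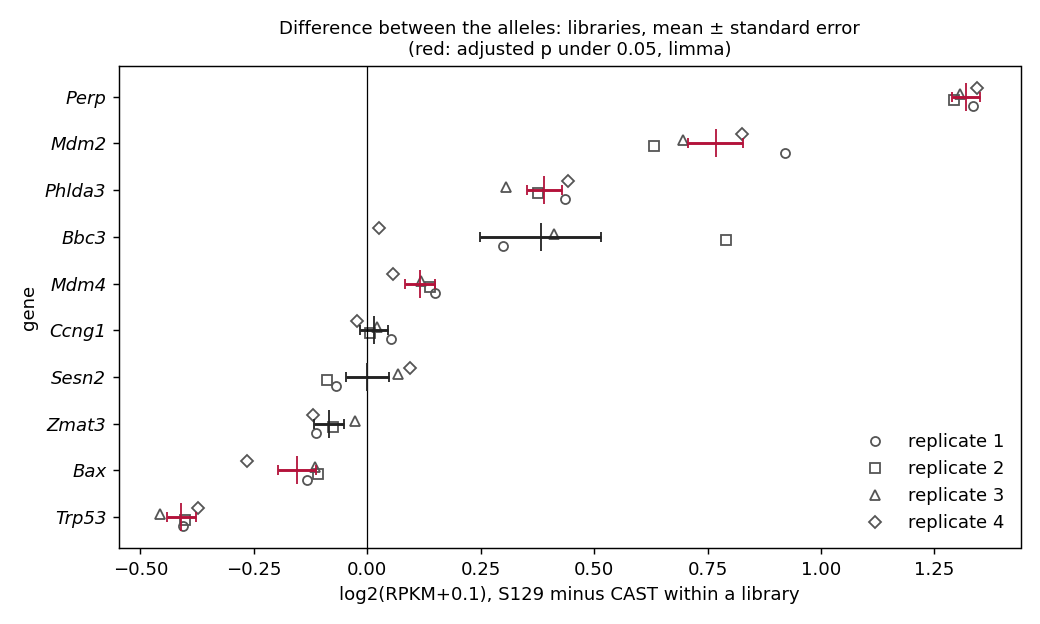
Difference S129 minus CAST on the log2(RPKM+0.1) scale, with a symbol for each library and a bar at the mean with its standard error from limma, in red for an adjusted p under 0.05. Perp stands at 1.32 and Trp53 at -0.41, and the libraries of Bbc3 spread from 0.03 to 0.79.

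**Figure D4:**
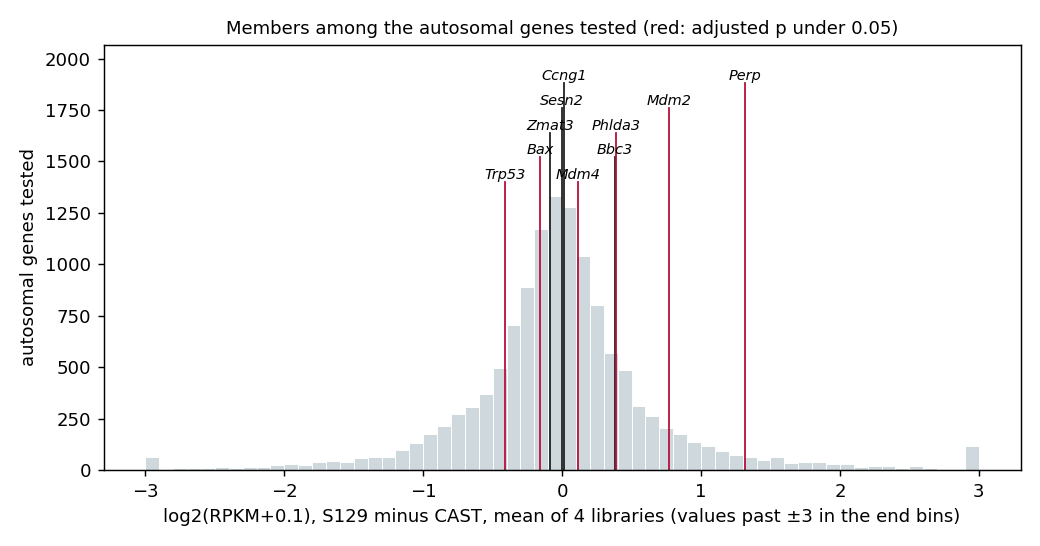
Number of autosomal genes tested by their log2(RPKM+0.1) difference S129 minus CAST, with the 10 genes as vertical lines, in red for an adjusted p under 0.05. The lines lie on both sides of 0, from Trp53 at -0.41 to Perp at 1.32, and differences past the ends of the axis are counted in the end bins.

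Trp53 (ENSMUSG00000059552, chr11:69580359-69591873 in mm10) encodes p53. Its S129 allele had 109, 135, 125 and 128.8 RPKM in replicates 1 to 4, and its CAST allele had 144, 179, 172 and 167 RPKM. The lowest CAST value was above the highest S129 value, and both alleles were lowest in replicate 1. The CAST allele was 1.33-fold higher, with a log2 difference of -0.41 (standard error 0.032, adjusted p = 0.000605 from limma, CAST higher in 4 of 4 libraries). From 3972 to 7801 reads stood behind each value. The S129 share of the reads was 43.9% ± 0.612 (SD, n = 4), where counting error alone would give an SD of 0.459 percentage points. Wrap53, known as the antisense neighbour of Trp53, ends before Trp53 begins in GENCODE M21, so no annotated gene overlaps it. Of the 71 other genes tested within 1 Mb, 55 had a difference above that of Trp53 and 16 below, with a median of -0.0082. A processed copy, Trp53-ps on chromosome 17, is annotated and is not among the listed genes, and whether its reads could reach Trp53 was not tested.

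Mdm2 (ENSMUSG00000020184, chr10:117688875-117710758) encodes the ubiquitin ligase that directs p53 to degradation. Its S129 allele had 5.92, 5.82, 5.77 and 5.25 RPKM in replicates 1 to 4, and its CAST allele had 3.08, 3.72, 3.52 and 2.91 RPKM. The alleles lay apart in every library, in the opposite direction to those of Trp53. The S129 allele was 1.70-fold higher, with a log2 difference of 0.77 (standard error 0.061, adjusted p = 0.000646 from limma, S129 higher in 4 of 4 libraries). These values rest on 151 to 528 reads. The S129 share was 64.2% ± 2.06 (SD, n = 4), close to the SD of 1.91 percentage points that counting alone would give. Within 1 Mb of Mdm2, 8 other genes were tested, and all 8 had differences below that of Mdm2, with a median of -0.16.

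Mdm4 (ENSMUSG00000054387, chr1:132959484-133030561) encodes the partner of Mdm2 that holds the activation domain of p53. The S129 allele had 58.9, 60.4, 62.3 and 53.3 RPKM, and the CAST allele 53.1, 54.9, 57.4 and 51.3 RPKM. S129 was higher within each library, but the ranges of the alleles overlapped, since both were lowest in replicate 4. The log2 difference was 0.12 (standard error 0.033, adjusted p = 0.0362 from limma, S129 higher in 4 of 4 libraries), or 1.08-fold. This call was lost without pairing the alleles by library (adjusted p = 0.252 from limma). It was also lost without replicate 1, 2 or 3, with adjusted p of 0.120, 0.128 and 0.118 from limma. A processed pseudogene on the opposite strand, Gm29257, overlaps Mdm4, and a processed copy, Mdm4-ps, lies on the X chromosome, and neither is listed. Against 56.4 RPKM of Mdm4, the mean of Mdm2 was 4.50 RPKM, and with the length of all annotated exons the values were 17.9 and 2.74 RPKM.

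Among the targets that act on growth and the cell cycle, Phlda3 passed the test between the alleles and Ccng1, Sesn2 and Zmat3 did not. Phlda3 (ENSMUSG00000041801, chr1:135766119-135769136) encodes a protein that competes with the kinase Akt for membrane lipids. Its S129 allele had 49.0, 52.3, 50.3 and 53.4 RPKM, and its CAST allele 36.2, 40.3, 40.7 and 39.3 RPKM. The S129 values were all above the CAST values. S129 was 1.31-fold higher, with a log2 difference of 0.39 (standard error 0.039, adjusted p = 0.00133 from limma, 4 of 4 libraries), and held 57.7% ± 1.07 of the reads (SD, n = 4). Of the 25 other genes tested within 1 Mb, 7 had a higher difference and 18 a lower one.

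Ccng1 (ENSMUSG00000020326, chr11:40748552-40755311) encodes cyclin G1, which brings a phosphatase to Mdm2. The S129 allele had 241, 244, 239 and 188 RPKM in replicates 1 to 4, and the CAST allele 232, 243, 236 and 191 RPKM. Both alleles were low in replicate 4, and the alleles overlapped. The log2 difference was 0.01 (standard error 0.031, adjusted p = 0.710 from limma), with S129 higher in 3 of 4 libraries. It is the gene with the most reads of the 10, from 11220 to 24337 for each allele and library. The S129 share was 51.2% ± 0.460 (SD, n = 4). It is not scaled to the totals of the alleles, in replicate 4 17403695 reads on S129 and 16716721 on CAST. In that replicate the share was 50.6%, with an exact (Clopper-Pearson) 95% interval of 50.0% to 51.3%, while CAST was higher in RPKM. Such intervals take in the error of counting and no other. Whether PCR copies of a molecule were marked is not given in the sources used here. Trp53, on the same chromosome, was higher on CAST.

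Sesn2 (ENSMUSG00000028893, chr4:132492032-132510501) encodes sestrin 2, a leucine sensor that restrains the growth kinase mTORC1. Its S129 allele had 22.8, 27.0, 29.9 and 25.6 RPKM, and its CAST allele 23.9, 28.7, 28.6 and 24.0 RPKM. CAST was above S129 in replicates 1 and 2 and below it in replicates 3 and 4, with a log2 difference of 0.00038 (standard error 0.048, adjusted p = 0.995 from limma). The S129 share had an SD of 1.65 percentage points between libraries, more than the 0.777 points that counting alone would give. Gm12981, annotated on the same strand within the span of Sesn2, is not listed, so its reads cannot be told apart.

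Zmat3 (ENSMUSG00000027663, chr3:32334792-32366014) encodes a zinc finger protein that binds RNA and acts on splicing. The S129 allele had 8.02, 8.23, 9.60 and 9.02 RPKM, and the CAST allele 8.68, 8.69, 9.79 and 9.81 RPKM. CAST was above S129 within each library, but the log2 difference of -0.08 did not pass (standard error 0.033, adjusted p = 0.0865 from limma). It stood at 0.02 after rescaling to a common autosomal sum. The median difference of the 621 other genes tested on chromosome 3 was -0.74, while that of the 8 tested within 1 Mb of Zmat3 was 0.11.

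Of the targets that act in apoptosis, Perp had the largest difference of the 10 genes. Perp (ENSMUSG00000019851, chr10:18845020-18857073) encodes a tetraspan membrane protein of cell junctions that is also an effector of apoptosis. The S129 allele had 67.7, 63.3, 64.7 and 62.2 RPKM in replicates 1 to 4, and the CAST allele 26.8, 25.8, 26.1 and 24.4 RPKM. Every S129 value was more than 2 times its CAST value. S129 was 2.50-fold higher, with a log2 difference of 1.32 (standard error 0.030, adjusted p = 1.7e-05 from limma, 4 of 4 libraries). The difference spanned 1.29 to 1.34 in the libraries. A larger difference in size was found for 11.4% of the genes tested. The S129 share was 72.2% ± 0.309 (SD, n = 4), on 797 to 3804 reads for each allele and library. All 11 other genes tested within 1 Mb had differences below that of Perp, with a median of -0.20, and the median of chromosome 10 was 0.0088.

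Bax (ENSMUSG00000003873, chr7:45461697-45466898) encodes the protein that forms pores in the outer mitochondrial membrane. The S129 allele had 433, 379, 394 and 343 RPKM, and the CAST allele 475, 408, 426 and 412 RPKM. CAST was higher within each library, and the ranges overlapped, since both alleles were highest in replicate 1. The log2 difference was -0.16 (standard error 0.042, adjusted p = 0.0295 from limma, CAST higher in 4 of 4 libraries), or 1.11-fold. Replicate 4 had -0.26, where the others had -0.13 to -0.11. The call was lost without pairing by library (adjusted p = 0.202 from limma), without replicate 1, 2 or 3 (adjusted p of 0.0811, 0.0722 and 0.0761 from limma), and after rescaling to a common autosomal sum (-0.05, adjusted p = 0.430 from limma). Division by the autosomal reads gave -0.11 (adjusted p = 0.0878 from limma). In whole reads the S129 share was 48.3% ± 1.26 (SD, n = 4). Gm45808, annotated as protein-coding on the same strand, overlaps Bax and is not listed, so reads of this overlap cannot be told apart.

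Bbc3 (ENSMUSG00000002083, chr7:16308393-16318205) encodes Puma, a protein that binds the survival members of the Bcl2 family and so releases Bax. The S129 allele had 7.55, 8.75, 5.73 and 10.1 RPKM in replicates 1 to 4, and the CAST allele 6.12, 5.02, 4.28 and 9.90 RPKM. Both alleles were lowest in replicate 3 and highest in replicate 4. Only 41 to 91 reads stood behind each value. In replicate 3 the exact 95% Poisson interval of the CAST value ran from 3.07 to 5.81 RPKM, and in replicate 4 from 7.67 to 12.6 RPKM. The log2 difference between the alleles was 0.38 (standard error 0.13, adjusted p = 0.0638 from limma, S129 higher in 4 of 4 libraries) and did not pass. Without replicate 4 the difference rose to 0.50 and passed (adjusted p = 0.0346 from limma), and without replicate 2 it stood at 0.25. It also passed after rescaling to a common autosomal sum (0.48, adjusted p = 0.0327 from limma), after division by autosomal reads, with a pseudocount of 1 and with a variance trend (adjusted p of 0.0487, 0.0478 and 0.0331 from limma). The S129 share ranged from 51.4% to 64.5%, with an SD of 5.44 percentage points, where counting error alone would give an SD of 4.35.

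Between libraries, the levels of Perp and Phlda3 varied least and that of Bbc3 most. On the log2(RPKM+0.1) scale, the SD of the mean of both alleles was 0.05 for Perp and 0.06 for Phlda3, 0.15 for Sesn2, 0.17 for Ccng1 and 0.40 for Bbc3. The median SD was 0.11 for the 10 genes and 0.14 for all genes tested. A smaller SD than that of Bbc3 was found for 96.6% of the genes tested, for 66.4% a smaller one than that of Ccng1, for 56.5% than that of Sesn2 and for 5.47% than that of Perp. Ccng1 had 189.6 RPKM in replicate 4, against 237 to 243 RPKM in the others. No library was low or high for all 10 genes. Replicate 1 was lowest for Trp53, Phlda3, Sesn2 and Zmat3 and highest for Bax and Perp, while replicate 4 was lowest for Ccng1, Mdm4, Mdm2, Bax and Perp and highest for Bbc3 and Phlda3.

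The genes most like Trp53 over the 8 allele values, by the root mean square difference of log2(RPKM+0.1), were Ppp1ca (0.12), Ppp4r1 (0.12) and U2af2 (0.12), each also with CAST higher. Those most like Mdm2 were Blzf1 (0.094), Afap1l2 (0.099) and Lox (0.11), each with S129 higher. These lists were drawn from all 13341 genes tested by the allele values themselves, so the shared direction follows from the choice. They describe the values only.

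A list of 40 further targets of p53 was examined by the same fit. All 40 were tested, and 15 were higher on S129 and 11 on CAST, which is 65.0% against 62.7% of all genes tested, with a median difference of 0.0093. Their levels ran from 0.712 to 4863 RPKM. The highest was Rps27l, a relative of a ribosomal protein, with 4863 ± 930 RPKM (SD, n = 4) and CAST higher by 1.17-fold (adjusted p = 0.00323 from limma), which is uncertain since reads of near-identical copies can be divided between genes. Cdkn1a, the cyclin-dependent kinase inhibitor p21 and best-known target of p53, had 424 ± 36.4 RPKM (SD, n = 4). Its CAST allele was 1.33-fold higher in 4 of 4 libraries (log2 difference -0.41, standard error 0.029, adjusted p = 0.000457 from limma). Of the 29 other genes tested within 1 Mb of Cdkn1a, 23 had a difference above that of Cdkn1a and 6 below, with a median of -0.17. Psrc1, which binds microtubules, had 193 ± 12.8 RPKM and a difference of -0.42 (adjusted p = 0.000459 from limma). The 30 other genes tested within 1 Mb of Psrc1 had a median of -0.69, and the 621 others tested on chromosome 3 had -0.74. The largest differences were those of Eda2r and Abcb1a. Eda2r, a receptor of the TNF receptor family, lies on the X chromosome, of which male cells carry only the maternal copy, and had 47.9 RPKM on S129 and 0.0361 RPKM on CAST. Abcb1a, a drug efflux pump, had 8.52 ± 1.39 RPKM on S129 and 1.59 ± 0.155 RPKM on CAST (SD, n = 4 each), or 5.08-fold (adjusted p = 2.1e-05 from limma).

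Of 32 regulators and relatives of p53 and Mdm2, 31 are listed and 29 were tested. S129 was higher for 11 and CAST for 11, or 75.9% against 62.7% of all genes tested, with a median difference of -0.03. Without pairing by library 14 of the 29 were called, and 48.2% of all genes tested. Rpl11, a ribosomal protein that binds Mdm2 when ribosome production is disturbed, had 3173 ± 549 RPKM, and Npm1, a nucleolar protein that also binds Mdm2, had 1585 ± 100 RPKM (SD, n = 4 each). S129 was higher for both, by 1.24-fold and 1.23-fold (adjusted p = 0.00133 and 0.00119 from limma). Both values are uncertain, since such genes have processed copies. Trim28, a corepressor that works with Mdm2, had 1310 ± 123.2 RPKM (SD, n = 4), with CAST 1.16-fold higher (adjusted p = 0.00397 from limma). The largest difference was that of Trp73, which encodes the p53 relative p73, with 1.33 ± 0.189 RPKM on S129 and 8.94 ± 0.608 RPKM on CAST (SD, n = 4 each), or 6.35-fold (adjusted p = 9.5e-06 from limma). All 16 other genes tested within 1 Mb of Trp73 had differences above its -2.67. Crebbp, a histone acetyltransferase that also modifies p53, was 1.88-fold higher on S129 (log2 difference 0.91, adjusted p = 0.000683 from limma). The 34 other genes tested within 1 Mb of Crebbp had a median of 0.72, and the 412 others tested on chromosome 16 had 0.69.

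Bax and Bbc3 belong to the Bcl2 family, of which 12 other members were examined. All 12 are listed, 1 at 0, and 10 were tested, of which 2 were higher on S129 and 4 on CAST, or 60.0% against 62.7% of all genes tested, with a median difference of -0.06. Mcl1, a survival factor and the most abundant of them, had 69.8 ± 6.25 RPKM (SD, n = 4) against 409 RPKM of Bax. With the length of all annotated exons Bax had 208 RPKM, and the length and SNPs of each gene limit this comparison. The CAST allele of Mcl1 was 2.17-fold higher (log2 difference -1.12, adjusted p = 6.3e-05 from limma). The 49 other genes tested within 1 Mb of Mcl1 had a median of -0.89, and the 621 others tested on chromosome 3 had -0.74. Bak1, the close relative of Bax, had 37.3 ± 1.83 RPKM, with 37.1 RPKM on S129 and 37.5 RPKM on CAST (log2 difference -0.01, adjusted p = 0.874 from limma). Bad, which promotes apoptosis, had 27.4 ± 0.963 RPKM and was 1.29-fold higher on S129 (adjusted p = 0.00112 from limma). Bik, of the same class as Bbc3, was 2.06-fold higher on CAST, with 3.45 ± 0.466 RPKM on S129 and 7.34 ± 1.67 RPKM on CAST (SD, n = 4 each; adjusted p = 0.00437 from limma).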

How the data were processed

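RNAseq of untreated F123-ESCs was examined in 4 libraries. The authors removed ribosomal reads with SortMeRNA, trimmed with Trimmomatic (version 0.40 in the submitters' notes), aligned with STAR to the masked mm10 genome, assigned reads to S129 or CAST by SNPsplit and deposited RPKM per gene and allele. The averages and log10 columns that the authors deposited were not used. The counting program and annotation are not given in the sources used here. The 8 allele columns were matched to libraries by allele and number, with the number of the first S129 column, written with a minus sign, read as 1. No column belonged to another sample.

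Whole reads were recovered from the RPKM with transcript lengths of GENCODE M21 (mm10), to which 23995 of the 24026 genes matched. Values counted as whole where all 8 columns came within 0.02 reads (plus 2e-07 times the value), and 19130 of the 20243 genes above 0, or 94.5%, were whole. A pair of reads may count as 1 or 2.

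Alleles were compared by limma (version 3.58.1) on differences of log2(RPKM+0.1), which understate changes of low values, in the genes whose alleles summed to 1 RPKM or more, adjusted over all of them by Benjamini-Hochberg. Both alleles are reads of the same library, which is the source of the pairing. Over 11946 genes the deviations of both alleles correlated by 0.146 to 0.234 within a library and by -0.187 to 0.151 between libraries. Neighbours in level, in an order drawn from the same values, were compared by the exact sign-flip permutation test. All scripts that test were checked on simulated data. For limma, the alleles were simulated without a shared library effect and with few genes changed. That check does not cover data in which 62.7% of the genes tested pass.

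The members and lists were chosen with earlier results of these data known. Besides the 10 genes, the text names from each list the 3 genes with the highest mean RPKM and the 2 called genes with the largest difference, the 3 genes most like Trp53 and Mdm2, genes that overlap a member, Wrap53, and markers. Alternatives were other pseudocounts, no filter, other scalings, no replicate block, a variance trend, other lengths, single alleles and each replicate left out.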

Additional observations from a re-analysis of the deposited data

Results flagged for a closer look

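Dixon's criterion for a library apart from the other 3 was applied to the level and to the allele difference of the 10 genes, and 2 of these 20 quantities passed the 95% critical value, where chance flags about 1 in 20. The level of Ccng1 was 189.6 RPKM in replicate 4, against 237 to 243 RPKM in the others, and was low on both alleles. The log2 difference of Bax was -0.26 in replicate 4, against -0.13 to -0.11 in the others. Replicate 4 has the fewest reads, and the part of depth in these values was not tested.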

How the results depend on the processing

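Of 110 values of single members between the alleles under alternatives, 92 kept direction and call, 10 lost the call (Mdm4 and Bax), 5 gained it (Bbc3) and 3 changed direction, none of which passed the test: Zmat3 was 0.018 after rescaling to a common autosomal sum, and Sesn2, at 0.00038, was -0.022 without replicate 3 and -0.031 without replicate 4, in a range of -0.031 to 0.030 over the replicates left out. This scaling moved the median difference of all genes tested from -0.0034 to 0.098, a shift of 0.10, and relative to that median Bax stood at -0.15 under both. Perp, Mdm2, Phlda3 and Trp53 kept their direction and passed under every alternative run. Members higher on CAST numbered 1 in place of 2 with that scaling, with division by the reads recovered on autosomal genes, an alternative chosen after the data were seen, and with no replicate block. Leaving out each replicate gave 1 to 2 of them. Bbc3 passed with a pseudocount of 1, with both scalings, with the variance trend and without replicate 4. Without pairing by library (no replicate block), 14 of the regulators and relatives were called in place of 22, and over all genes 3292 and 3133 in place of 4187 and 4182; beyond Mdm4 and Bax no member changed its call. The median level of the members was 55.0 RPKM on S129 alone, 32.7 RPKM on CAST alone, 33.9 RPKM with exon-union lengths and 45.7 RPKM after rescaling, against 45.1 RPKM. The median S129 share was 51.1% in RPKM, since each allele is divided by its own total. Depth limits Bbc3 most, and the SNPs of each gene limit every level.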
